A study of Mus musculus with 12 samples.

Results

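Respiratory complex I was followed through 36 of its subunit genes in the heart and gastrocnemius of mice with and without a C26 tumour. The genes were chosen by symbol, with earlier results of these data known, and all 36 were found among 19591 genes on the array. Their names were looked up in a deposited table whose symbols stop after 7 characters, and a gene with several transcripts on the array was represented by the brightest of them, by its mean across the 12 arrays. This applied to 6 of the 36 genes (Ndufa11, Ndufab1, Ndufb4, Ndufb11, Ndufs3 and Ndufs5), and 42 transcripts stood for the 36 genes. For these 6 the array may not separate the gene from near-identical copies.

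Complex I takes electrons from NADH and hands them to ubiquinone in the inner mitochondrial membrane, pumping protons as it does so, and it is the main entry point of electrons into the respiratory chain. It is shaped like an L: the arm in the matrix holds the NADH site and the chain of iron-sulphur clusters, and the arm in the membrane holds the pumps, whose core is encoded by mitochondrial DNA. A small set of core subunits carries out catalysis, a larger set of accessory subunits surrounds and stabilises them, and heart and oxidative muscle fibres are rich in the complex.

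The tumour-bearing mice had been injected under the skin of the flank with C26 cells, a colon carcinoma line known for causing cachexia, in which muscle and fat waste away. The non-tumour-bearing (NTB) mice had been injected with the RPMI/PS medium alone. All mice were Balb/c-DBAj hybrids 10 to 11 weeks old, and the 4 groups, each with 3 arrays described as biological replicates, were C26 gastrocnemius, NTB gastrocnemius, C26 heart and NTB heart. The hearts and the gastrocnemius muscles were of different cohorts of mice, so that a difference between the muscles cannot be told apart from one between cohorts, and whether an array stood for a single mouse is not given in the sources used here.

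Values are log2 expression levels from RMA, a method that corrects, normalizes and summarises the probes of each transcript. A change is the C26 minus NTB difference of mean log2 levels, with ± for its standard error (SE) in the fit, and "fell", "rose" and "called" mean an adjusted p under 0.05 in a limma model across all 19591 genes. The array medians over all transcripts lay between 5.93 and 6.09. The labelled tissues matched their markers: between NTB heart and NTB gastrocnemius all 5 fast skeletal muscle markers were lower in heart (median log2 difference -7.40) and all 5 heart muscle markers were higher (median 6.52).

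The start regions of these genes were searched for the letters bound by factors known to drive mitochondrial genes. RefSeq promoter windows of 300 bases on the GRCm38.p6 assembly were on hand for 33 of the 36 genes, some genes having more than 1 window, and both strands were read. A gene was counted when any of its windows held the letters. The letters AAGATGGCG, bound by the zinc finger factor YY1, stood in the windows of 5 of the 33 genes (15.2%), against 443 of all 27025 genes with a window (1.64%). In all 5 they lay on the gene's own strand, beginning between 23 and 36 bases from the start site, where the start site is base 1. Counted after these positions had been seen, letters starting at bases 20 to 40 were found for 5 of the 33 genes (15.2%) and for 130 of all genes (0.481%). The 5 stretches are shown because their letters and place are shared, each 5′ to 3′ on the gene's strand with the YY1 letters in capitals. They lie at chr3:51408914-51408943 (minus strand) for Ndufc1, chr10:80249463-80249492 (plus) for Ndufs7, chr6:126849096-126849125 (minus) for Ndufa9, chr13:73328433-73328462 (minus) for Ndufs6 and chr13:114388045-114388074 (minus) for Ndufs4. The letters hold an ATG, and whether it is the start codon was not looked up.
Ndufc1: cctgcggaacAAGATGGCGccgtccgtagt
Ndufs7: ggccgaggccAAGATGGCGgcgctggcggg
Ndufa9: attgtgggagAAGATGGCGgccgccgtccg
Ndufs6: aagggtcaccggcAAGATGGCGgcggtgct
Ndufs4: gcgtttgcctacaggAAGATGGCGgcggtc

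The letters of the other factors were found for fewer of the 33 genes. AAGGTCA, the core bound by the estrogen-related receptors, was found for 3 of 33 genes (9.09%, against 5.38% of all genes), and the longer form TCAAGGTCA, which contains that core, for 0 of 33 (0.466% of all). GCGCATGCG, bound by NRF1, was found for 2 genes, Ndufa8 and Ndufa11 (6.06%, against 1.95%). CCGGAAG, bound by ETS factors such as GABPA, was found for Ndufb6, Ndufb7, Ndufs3 and Ndufs8 (12.1%, against 9.93%). The 3 stretches with the receptor core, in capitals, are shown because Ndufb4 was the gene most raised in NTB heart over NTB gastrocnemius and Ndufb2 and Ndufs5 were among the 5 called lower there. They lie at chr16:37654405-37654434 (minus strand) for Ndufb4, chr6:39592373-39592402 (plus) for Ndufb2 and chr4:123718396-123718425 (minus) for Ndufs5, where the core is on the opposite strand and reads TGACCTT.
Ndufb4: tcctgagcctgAAGGTCAgactcgagaggg
Ndufb2: ggagcagcagtAAGGTCAgccaagagcacc
Ndufs5: tttctcgagtgTGACCTTgctcaagtagca

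In C26 gastrocnemius 16 of the 36 complex I genes fell and 0 rose, where 5.42% of all genes fell and 6.4% rose. The C26 mean lay below the NTB mean for 35 of the 36, against 50.5% of all genes, and 30 had an unadjusted p under 0.05. The median change was -0.58, with a range of -1.002 to 0.18, and the median of all genes was -0.00. For 17 of the 36 all C26 arrays lay below all NTB arrays, as they did for 9.39% of all genes. Of the genes with the highest signal on the array, the top 1960, which held 30 of the 36, 17.3% fell and the median change was -0.00. These are whole muscles, in which fewer mitochondria-rich fibres and less RNA per fibre cannot be told apart.

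The number of falls depended on how the spread between arrays was modelled, as the plot of changes by gene with its standard errors shows for the fit used here. Same-numbered C26 and NTB gastrocnemius arrays deviated from their group means together (correlations between 0.31 and 0.50), though the labels do not say that they belong together. With the replicate number as a block, a pairing thus taken from these same data, 29 of 36 fell, where 7.59% of all genes did. With the gastrocnemius arrays fitted alone 4 fell, namely Ndufab1, Ndufc1, Ndufs1 and Ndufv3, where 2.17% of all genes did.

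**Figure D1:**
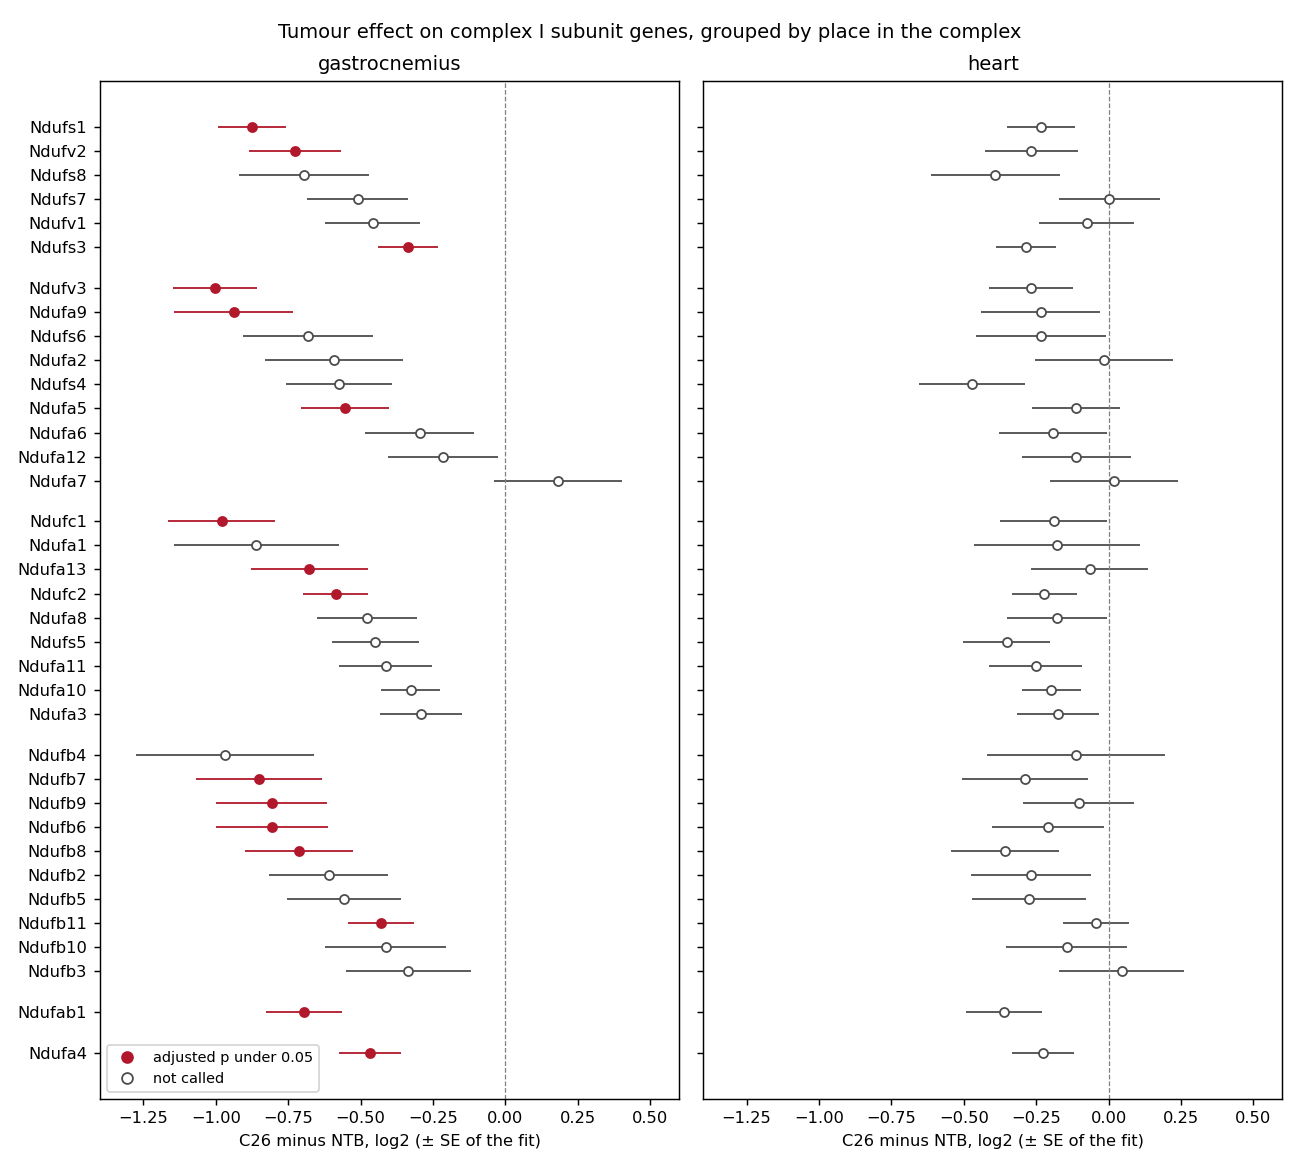
C26 minus NTB change (log2, x axis) of each of the 36 genes in gastrocnemius (left) and heart (right), with bars of ± SE of the fit and filled points for genes called. Genes are grouped from top to bottom as core catalytic, matrix arm accessory, near membrane arm, far membrane arm, Ndufab1 and Ndufa4. In gastrocnemius 35 points lie left of 0 and 16 are filled, in heart 33 lie left of 0 and none is filled.

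The core catalytic subunits carry the NADH site and the iron-sulphur clusters, and 3 of the 6 measured among these genes fell in C26 gastrocnemius (median change of the 6, -0.60). Ndufs1, the largest subunit and holder of several clusters near the NADH site, had levels of 10.77, 10.59 and 10.31 in C26 gastrocnemius and 11.38, 11.48 and 11.43 in NTB gastrocnemius. All C26 arrays lay well below the NTB arrays. Ndufs1 fell to 54.5% of the NTB level (log2 -0.88 ± 0.12, adjusted p = 0.000136). Ndufv2, which holds a cluster beside the NADH site, had levels of 10.51, 10.30 and 9.70 in C26 and 10.95, 10.83 and 10.90 in NTB gastrocnemius. The groups did not overlap, and C26 array 3 was the lowest. Ndufv2 fell to 60.5% (log2 -0.73 ± 0.16, adjusted p = 0.00665). Ndufs3, a core subunit close to the ubiquinone site, had levels of 11.75, 11.73 and 11.44 in C26 and 11.97, 11.96 and 11.98 in NTB gastrocnemius. The NTB arrays were nearly equal and all C26 arrays lay below them. Ndufs3 fell by 0.34 ± 0.10 on the log2 scale (adjusted p = 0.0481), a call that held in 1 of the 12 fits that each left out an array (adjusted p up to 0.111).

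The other 3 core subunits were not called in gastrocnemius. Ndufs8, which holds clusters on the way to ubiquinone, had levels of 9.48, 8.84 and 8.38 in C26 and 9.93, 9.22 and 9.63 in NTB gastrocnemius. C26 array 1 lay above NTB array 2, so that the groups overlapped, and the change was -0.70 ± 0.22 (adjusted p = 0.0577). Ndufs7, which holds the last cluster before ubiquinone, had levels of 11.40, 11.12 and 10.64 in C26 and 11.72, 11.80 and 11.17 in NTB gastrocnemius. Array 3 was the lowest in both groups and C26 array 1 lay above NTB array 3. The change of Ndufs7 was -0.51 ± 0.18 (adjusted p = 0.0784). Ndufv1, which binds NADH and the flavin, had levels of 11.12, 10.68 and 10.32 in C26 and 11.41, 11.07 and 11.03 in NTB gastrocnemius. C26 array 1 lay above NTB arrays 2 and 3, and the change was -0.46 ± 0.16 (adjusted p = 0.0906).

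**Figure D2:**
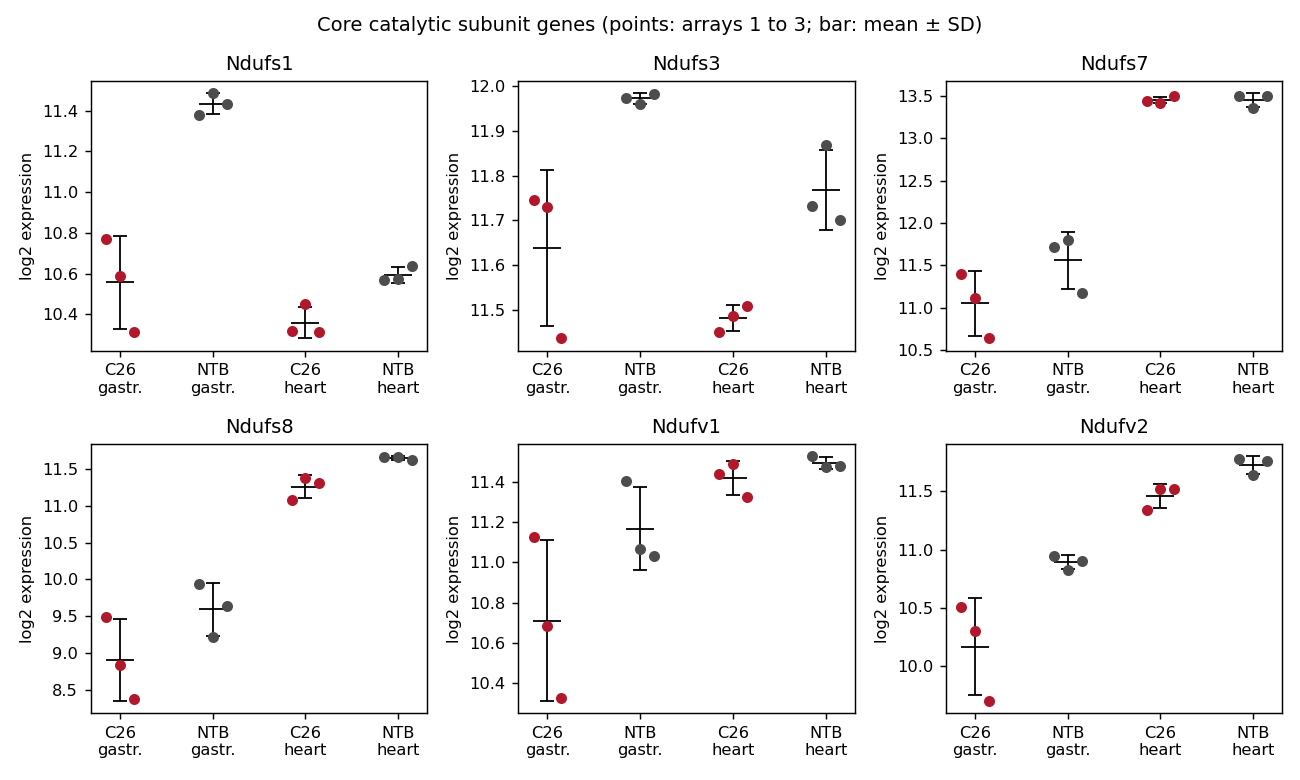
Log2 levels (y axis, a different range in each panel) of the 6 core catalytic subunit genes in C26 and NTB gastrocnemius and in C26 and NTB heart, with 1 point per array and bars for the mean ± SD (n = 3). Ndufs1, Ndufs3 and Ndufv2 have all C26 gastrocnemius points below all NTB points, and Ndufs7 and Ndufs8 lie far higher in heart than in gastrocnemius.

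Of the 9 accessory genes of the matrix arm 3 fell in C26 gastrocnemius (median change -0.58). Ndufv3, a small subunit of the NADH-oxidising tip, had levels of 7.17, 7.03 and 6.76 in C26 and 8.06, 8.19 and 7.72 in NTB gastrocnemius. All C26 arrays lay below all NTB arrays. Ndufv3 fell to 49.9% of the NTB level (log2 -1.002 ± 0.15, adjusted p = 0.000292), the largest change among the 36 genes. Ndufa9, which sits at the junction of the arms and whose start region carries the YY1 letters shown above, had levels of 10.81, 10.52 and 9.79 in C26 and 11.28, 11.51 and 11.16 in NTB gastrocnemius. The groups were apart, with C26 array 3 the lowest by far. Ndufa9 fell to 52.2% (log2 -0.94 ± 0.21, adjusted p = 0.00653). Ndufa5, a subunit of the ubiquinone-binding part of the arm, had levels of 9.55, 9.28 and 8.84 in C26 and 9.82, 9.91 and 9.61 in NTB gastrocnemius. The highest C26 array lay just below the lowest NTB array. Ndufa5 fell by 0.55 ± 0.15 (adjusted p = 0.0267), and was not called without C26 array 2 or NTB array 1 or 2 of gastrocnemius (adjusted p up to 0.102).

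The other 6 genes of this arm were not called. Ndufs6, which binds zinc, changed by -0.68 ± 0.23 (adjusted p = 0.0662), Ndufa2, which has a thioredoxin-like fold, by -0.59 ± 0.24 (adjusted p = 0.146), and Ndufs4, whose loss in mice gives a Leigh-like brain disease, by -0.58 ± 0.18 (adjusted p = 0.0556). Ndufa6, which binds the acyl carrier protein, changed by -0.30 ± 0.19 (adjusted p = 0.436). Ndufa12 had levels of 9.08, 8.74 and 8.09 in C26 and 8.95, 8.94 and 8.66 in NTB gastrocnemius. Its C26 array 1 lay above every NTB array while its C26 array 3 lay below them, and the change was -0.22 ± 0.19 (adjusted p = 0.632) and 0.06 without C26 array 3. Ndufa7 had levels of 8.06, 7.496 and 7.27 in C26 and 7.95, 7.40 and 6.93 in NTB gastrocnemius, each C26 array being above the NTB array of its number. It was the 1 gene with a higher C26 mean, at 0.18 ± 0.22 (adjusted p = 0.773), and its change was -0.04 without C26 array 1 and -0.07 without NTB array 3.

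Of the 9 accessory genes of the membrane arm next to the matrix arm 3 fell in C26 gastrocnemius (median change -0.48). Ndufc1, a small membrane subunit with the YY1 letters in its start region, had levels of 10.19, 10.16 and 9.50 in C26 and 10.76, 11.36 and 10.68 in NTB gastrocnemius. The groups were apart. Ndufc1 fell to 50.7% of the NTB level (log2 -0.98 ± 0.18, adjusted p = 0.00224). Ndufc2, its neighbour in the membrane, had levels of 10.24, 10.35 and 10.28 in C26 and 10.82, 10.75 and 11.06 in NTB gastrocnemius. Its C26 arrays were close together, array 3 included. Ndufc2 fell to 66.6% (log2 -0.59 ± 0.11, adjusted p = 0.00249). Ndufa13, also known as GRIM-19, had levels of 8.59, 8.08 and 7.55 in C26 and 9.04, 8.73 and 8.49 in NTB gastrocnemius. C26 array 1 lay above NTB array 3. Ndufa13 fell by 0.68 ± 0.20 (adjusted p = 0.0420), and the call held in 2 of the 12 fits that each left out an array (adjusted p up to 0.186).

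The largest change of this region that was not called was that of Ndufa1, a small X-linked membrane subunit needed early in assembly. It had levels of 8.98, 9.44 and 8.17 in C26 and 9.33, 10.44 and 9.40 in NTB gastrocnemius. C26 array 2 lay above NTB arrays 1 and 3, and the change was -0.86 ± 0.29 (adjusted p = 0.0674). Ndufa3, a single-pass membrane subunit, had levels of 10.02, 9.88 and 9.48 in C26 and 10.16, 10.26 and 9.83 in NTB gastrocnemius. The groups overlapped, and the change was -0.29 ± 0.14 (adjusted p = 0.254). Ndufa8 and Ndufs5, both small proteins on the intermembrane side, changed by -0.48 ± 0.17 (adjusted p = 0.0975) and -0.45 ± 0.15 (adjusted p = 0.0703). Ndufa11 changed by -0.41 ± 0.16 (adjusted p = 0.129), and Ndufa10, which has a nucleoside kinase fold, by -0.33 ± 0.10 (adjusted p = 0.0504).

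Of the 10 genes of the far membrane arm, all of them Ndufb genes, 5 fell in C26 gastrocnemius (median change -0.66). Ndufb7, an intermembrane-side subunit, had levels of 10.00, 9.51 and 8.87 in C26 and 10.46, 10.51 and 9.96 in NTB gastrocnemius. C26 array 1 lay just above NTB array 3, and Ndufb7 fell by 0.85 ± 0.22 (adjusted p = 0.0171). Ndufb9, which binds the acyl carrier protein, had levels of 10.38, 9.85 and 9.40 in C26 and 10.99, 10.52 and 10.54 in NTB gastrocnemius. The groups did not overlap, and Ndufb9 fell by 0.81 ± 0.19 (adjusted p = 0.0110). Ndufb6 had levels of 10.89, 10.62 and 9.81 in C26 and 11.30, 11.26 and 11.18 in NTB gastrocnemius. Its NTB arrays were close together and above all C26 arrays, and Ndufb6 fell by 0.81 ± 0.19 (adjusted p = 0.0115). Ndufb8 had levels of 9.44, 9.19 and 8.51 in C26 and 9.78, 9.90 and 9.60 in NTB gastrocnemius. The groups did not overlap, and Ndufb8 fell by 0.71 ± 0.19 (adjusted p = 0.0205). Ndufb11, an X-linked membrane subunit, had levels of 10.48, 10.46 and 10.07 in C26 and 10.76, 10.71 and 10.83 in NTB gastrocnemius. Its groups were apart as well, and Ndufb11 fell by 0.43 ± 0.11 (adjusted p = 0.0218). Of these 5, Ndufb6 was called in every fit that left out an array, Ndufb9 was lost without NTB array 1, Ndufb7 and Ndufb8 without NTB array 1 or 2, and Ndufb11 without NTB array 1 or 3 of gastrocnemius (adjusted p up to 0.0852).

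Ndufb4 had the third largest change of all 36 genes without being called. Its levels were 10.09, 10.01 and 8.55 in C26 and 10.46, 11.01 and 10.10 in NTB gastrocnemius. C26 array 3 lay far below the rest, and the highest C26 array lay just under the lowest NTB array. The change was -0.97 ± 0.31 (adjusted p = 0.0536). Ndufb2, whose start region carries the receptor core, had levels of 7.82, 7.11 and 6.79 in C26 and 8.10, 7.89 and 7.57 in NTB gastrocnemius. C26 array 1 lay above NTB array 3, and the change was -0.61 ± 0.21 (adjusted p = 0.0725). Ndufb5 changed by -0.56 ± 0.20 (adjusted p = 0.0849), Ndufb10 by -0.41 ± 0.21 (adjusted p = 0.280) and Ndufb3 by -0.33 ± 0.22 (adjusted p = 0.450).

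The remaining genes, Ndufab1 and Ndufa4, were not grouped with either arm. Ndufab1, the mitochondrial acyl carrier protein, which sits in both arms and also serves fatty acid and lipoic acid synthesis, had levels of 9.89, 10.19 and 9.86 in C26 and 10.43, 10.77 and 10.82 in NTB gastrocnemius. The groups were apart, and Ndufab1 fell to 61.7% of the NTB level (log2 -0.70 ± 0.13, adjusted p = 0.00216). Ndufa4, named as a complex I subunit but now counted with cytochrome c oxidase, had levels of 12.08, 12.09 and 11.78 in C26 and 12.38, 12.59 and 12.38 in NTB gastrocnemius. The groups were apart, and Ndufa4 fell by 0.47 ± 0.11 (adjusted p = 0.00891). Without Ndufa4, 15 of 35 genes fell and the median change was -0.59.

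The arrays of a group did not carry equal weight in these changes. The mean log2 level over the 36 genes was 9.88, 9.70 and 9.15 in C26 gastrocnemius arrays 1 to 3 (9.58 ± 0.38, SD, n = 3) and 10.23, 10.25 and 10.01 in NTB gastrocnemius arrays 1 to 3 (10.16 ± 0.13). Each C26 array was lower than each NTB array, and C26 array 3 stood apart. In it all 36 genes lay below the mean of the other C26 arrays, by a median of 0.65 on the log2 scale, and 35 of them had their lowest C26 level there. Over all genes the median of the same deviation was -0.04, and over the 1960 with the highest signal -0.31. Taken array against array, the median difference of the 36 genes was between -1.12 and -0.92 for C26 array 3 and between -0.34 and -0.13 for C26 array 1, of which the smallest, against NTB array 3, had 21 of 36 genes lower in C26.

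**Figure D3:**
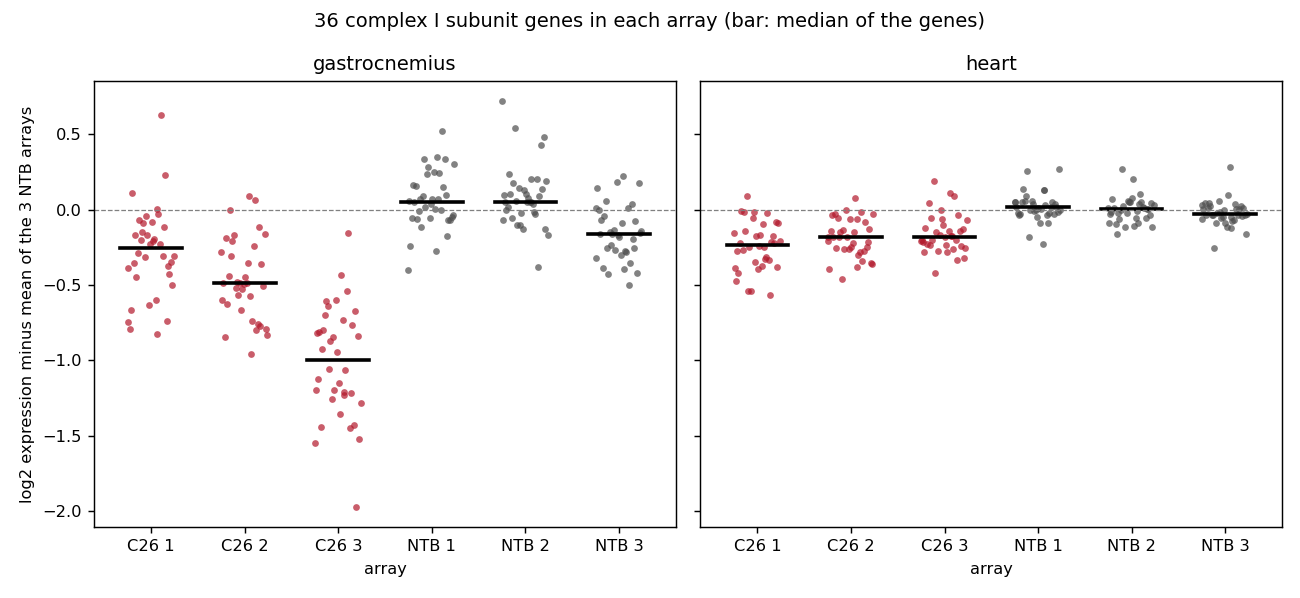
Log2 level of each of the 36 genes in each array minus its mean over the 3 NTB arrays of the same muscle (y axis), with 1 point per gene and a bar for the median of the genes. C26 gastrocnemius array 3 has its whole cloud below 0 and lies lower than arrays 1 and 2, while the C26 heart arrays lie close together just below 0.

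Leaving out C26 gastrocnemius array 3 made the falls smaller and kept most calls. The median change was -0.35 in place of -0.58, and 14 genes fell, all of them among the 16, where 5.82% of all genes fell. Ndufa13 and Ndufs3 were lost. Ndufv3 then changed by -0.89 (adjusted p = 0.000310), Ndufs1 by -0.75 (adjusted p = 7.07e-05), Ndufc1 by -0.76 (adjusted p = 0.00238) and Ndufc2 by -0.58 (adjusted p = 0.00237). The weight that limma estimated over all genes was 0.151 for array 3 against 0.570 and 3.81 for C26 gastrocnemius arrays 1 and 2, between 0.611 and 0.757 for the NTB gastrocnemius arrays, and between 1.08 and 1.90 for the heart arrays. With these weights 27 genes fell, where 7.95% of all genes did, and the median change was -0.47. The lowest number of falls, 9, came without NTB gastrocnemius array 1, where 3.98% of all genes fell, and the highest, 27, without C26 gastrocnemius array 1, where 6.83% did. Those 9, called in all 12 fits that each left out an array, were Ndufa4, Ndufa9, Ndufab1, Ndufb6, Ndufc1, Ndufc2, Ndufs1, Ndufv2 and Ndufv3. All these fits shared their estimate of the spread with the heart arrays, which lay closer together. With the gastrocnemius arrays fitted alone, Ndufa4 (adjusted p = 0.0973), Ndufa9 (0.0553), Ndufb6 (0.105), Ndufc2 and Ndufv2 were not called.

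**Figure D4:**
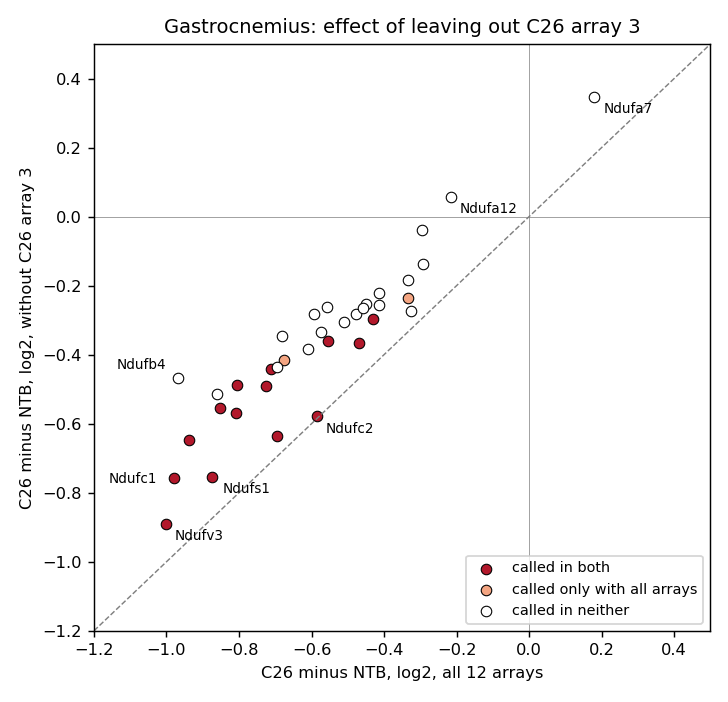
C26 minus NTB change in gastrocnemius (log2) of each of the 36 genes with all 12 arrays (x axis) and without C26 gastrocnemius array 3 (y axis), with a dashed line where both are equal. All 36 points lie above the line. The 14 red points were called both ways and the 2 orange points, Ndufa13 and Ndufs3, with all arrays alone.

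Markers of other cells differed between the same arrays. In C26 gastrocnemius array 3 the 5 fat cell markers lay above the other C26 arrays by a median of 1.31, the 6 macrophage markers by 0.42, and the 5 slow fibre markers had a median deviation of -1.14. The medians of the other marker lists in array 3 lay between -0.44 (heart muscle) and 0.13 (fibroblasts). C26 gastrocnemius array 1 deviated the other way, with medians of -1.47 for fat cell, -0.74 for macrophage and 0.94 for slow fibre markers. Summed over the list on the linear scale, fat cell markers were at 438, 717 and 1817 in C26 gastrocnemius arrays 1 to 3 and between 400 and 666 in NTB gastrocnemius, and slow fibre markers at 8483, 6560 and 5356 in C26 and between 7190 and 8711 in NTB gastrocnemius. The largest part of the fat cell sums came from Cfd, at log2 levels of 7.93 to 10.22 in C26 and 7.55 to 8.72 in NTB gastrocnemius. Of the marker genes 0 of 5 for fat cells and 1 of 5 for slow fibres were called in gastrocnemius, the slow fibre gene lower. All 3 red cell markers rose (sums of 10134 to 11799 in C26 and 4526 to 5189 in NTB gastrocnemius), 3 of 5 fibroblast markers fell (4216 to 5630 and 6570 to 10574), and 1 of 6 macrophage markers (627 to 1108 and 574 to 756) and 2 of 4 endothelial markers (1424 to 1758 and 1264 to 1499) rose. Heart muscle markers, of which 1 of 5 fell, summed to 443 to 828 in C26 and 2290 to 3183 in NTB gastrocnemius. Most of the NTB sum came from the gene that fell, Actc1 (log2 -3.06, NTB mean 11.15). Myh6 (-0.13), Nppa (0.11), Tnni3 (-0.19) and Tnnt2 (-0.22), with NTB means of 5.19 to 7.22, were not called. Fast skeletal muscle markers, of which 1 of 5 fell, summed to 47593 to 54176 in C26 and 55617 to 59104 in NTB gastrocnemius. The part of these markers in the changes of the complex I genes was not tested.

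In C26 heart 0 of the 36 genes were called in the limma model, where 1.09% of all genes fell and 2.11% rose, and 4 had an unadjusted p under 0.05. The changes were small and pointed mostly down: the C26 mean was lower for 33 of the 36, against 48% of all genes, the median change was -0.20 with a range of -0.47 to 0.05, and the median of all genes was 0.01. For 25 of the 36 all C26 heart arrays lay below all NTB heart arrays, as they did for 13.4% of all genes. The mean level over the 36 genes was 10.28, 10.33 and 10.36 in C26 heart arrays 1 to 3 (10.32 ± 0.04, SD, n = 3) and 10.54, 10.52 and 10.49 in NTB heart arrays 1 to 3 (10.52 ± 0.02). No heart array stood apart, and between single arrays the median difference lay between -0.25 and -0.14 with 31 to 35 of the 36 genes lower in C26. The heart counts depended on the gastrocnemius arrays that share the estimate of the spread: with the heart arrays fitted alone 12 genes fell, where 5.46% of all genes did, with array weights 5 did (4.77%), and without C26 gastrocnemius array 3 Ndufs4 did (2.53%).

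The largest heart difference was that of Ndufs4, which helps to hold the NADH-oxidising tip on the complex. Its levels were 11.20, 11.27 and 11.32 in C26 heart and 11.55, 12.01 and 11.65 in NTB heart. All C26 arrays lay below all NTB arrays, among which array 2 was high. The change was -0.47 ± 0.18 (adjusted p = 0.263, and 0.00685 with the heart arrays alone). Ndufs8 had levels of 11.09, 11.38 and 11.32 in C26 heart and 11.67, 11.67 and 11.62 in NTB heart. The groups did not overlap, and the change was -0.39 ± 0.22 (adjusted p = 0.565, and 0.00429 alone). Ndufab1 had levels of 9.91, 9.99 and 10.17 in C26 heart and 10.40, 10.36 and 10.39 in NTB heart. Again the groups were apart, with a change of -0.36 ± 0.13 (adjusted p = 0.210, and 0.00713 alone). Ndufb8 had levels of 10.04, 10.32 and 10.31 in C26 heart and 10.65, 10.47 and 10.64 in NTB heart. The C26 arrays lay below the NTB arrays, and the change was -0.36 ± 0.19 (adjusted p = 0.498, and 0.0169 alone). The other genes called with the heart arrays alone were Ndufa4, Ndufb5, Ndufb6, Ndufb7, Ndufs1, Ndufs3, Ndufs5 and Ndufv2, whose changes in the model of all arrays lay between -0.35 and -0.21.

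Among the core subunits in heart 4 of 6 had all C26 arrays below all NTB arrays, as did 13.4% of all genes. Ndufs1 had levels of 10.32, 10.45 and 10.31 in C26 heart and 10.57, 10.57 and 10.64 in NTB heart. The groups were apart by a small step, and the change was -0.23 ± 0.12 (adjusted p = 0.463). Ndufv2 and Ndufs3, also without overlap, changed by -0.27 ± 0.16 (adjusted p = 0.598) and -0.29 ± 0.10 (adjusted p = 0.213). Ndufs7 had levels of 13.44, 13.42 and 13.50 in C26 heart and 13.50, 13.36 and 13.50 in NTB heart, which overlapped fully, with a change of 0.00 ± 0.18. Ndufv1 changed by -0.08 ± 0.16 (adjusted p = 0.947). In the near membrane arm 8 of 9 genes were without overlap, in the far membrane arm 7 of 10 and in the matrix arm accessory genes 4 of 9, beside the same 13.4% of all genes. Macrophage markers (3 of 6 rose, with sums of 2413 to 2651 in C26 and 1395 to 1537 in NTB heart) and fibroblast markers (1 of 5 rose, with sums of 11654 to 12330 and 7996 to 8483) moved with the same groups. Heart muscle markers, of which 0 of 5 were called, summed to 44032 to 48011 in C26 and 50292 to 51634 in NTB heart. Fast skeletal muscle markers, of which 1 of 5 fell, summed to 4450 to 4913 in C26 and 6044 to 6480 in NTB heart. Nearly all of that sum came from the gene that fell, Ckm (log2 -0.43, NTB heart mean 12.55). Myh4 (0.03), Actn3 (0.07), Tnnt3 (0.26) and Mylpf (-0.09), with NTB heart means of 5.33 to 6.36, were not called. The part of all these marker lists in the complex I differences was not tested.

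The tumour effect was more negative in gastrocnemius than in heart for 35 of the 36 genes, with a median difference of -0.37, while 51.5% of all genes had a negative difference. The difference itself was called for 1 gene of the 36, Ndufs1, a number near the 1.97% of all genes called in that direction. Its effects of -0.88 in gastrocnemius and -0.23 in heart differed by -0.64 ± 0.17 (adjusted p = 0.0416), and the call was lost in 10 of the 12 fits that each left out an array (adjusted p up to 0.121). The differences of 6 genes were larger without being called, the largest being those of Ndufb4 (-0.86 ± 0.43, adjusted p = 0.394), Ndufc1 (-0.79 ± 0.26, adjusted p = 0.126) and Ndufv3 (-0.73 ± 0.21, adjusted p = 0.0636). In heart these had levels of 12.73, 12.68 and 12.69 (C26) and 12.83, 12.78 and 12.82 (NTB) for Ndufb4, and 11.34, 11.27 and 11.37 (C26) and 11.49, 11.52 and 11.54 (NTB) for Ndufc1. Ndufv3 was at 8.40, 8.28 and 8.48 in C26 heart and 8.79, 8.57 and 8.61 in NTB heart. For all 3 genes the C26 heart arrays lay below the NTB heart arrays by a small step. With the replicate number as a block 7 genes were called for the difference, Ndufb4, Ndufc1 and Ndufv3 among them, where 3.63% of all genes were. As many as 33 genes had a lower C26 mean in both muscles, but the sizes were only loosely related across the 36 genes (Pearson r = 0.33, Spearman rho = 0.32, as a description across genes of the same arrays).

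Without a tumour the muscles differed gene by gene. Between NTB heart and NTB gastrocnemius 19 of the 36 genes were called higher in heart, where 24.7% of all genes were, and 5 were called lower, where 15.8% were. The median difference, heart minus gastrocnemius, was 0.51, against 0.05 over all genes. All NTB heart arrays lay above all NTB gastrocnemius arrays for 21 of the 36 genes, as for 31.4% of all genes, and below them for 11, as for 21.6%. The highest difference was that of Ndufb4, whose levels were 12.83, 12.78 and 12.82 in NTB heart and 10.46, 11.01 and 10.10 in NTB gastrocnemius. It was 4.89-fold higher in heart (log2 2.29 ± 0.31, adjusted p = 1.99e-05). Ndufs8, at 11.67, 11.67 and 11.62 in NTB heart and 9.93, 9.22 and 9.63 in NTB gastrocnemius, was 4.17-fold higher (log2 2.06 ± 0.22, adjusted p = 2.34e-06). Ndufs7, at 13.50, 13.36 and 13.50 in NTB heart and 11.72, 11.80 and 11.17 in NTB gastrocnemius, was 3.70-fold higher (log2 1.89 ± 0.18, adjusted p = 4.58e-07). For these 3 genes the muscles were far apart with no overlap.

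The 5 genes lower in NTB heart were Ndufb7, Ndufa4, Ndufb2, Ndufs5 and Ndufs1. Their share of the complex I genes was no larger than the 15.8% of all genes called lower there, so their number does not set complex I apart. Ndufb7 was at 8.87, 8.90 and 8.89 in NTB heart and 10.46, 10.51 and 9.96 in NTB gastrocnemius (log2 -1.43 ± 0.22, adjusted p = 7.13e-05). Ndufa4 was at 11.07, 11.03 and 10.99 in NTB heart and 12.38, 12.59 and 12.38 in NTB gastrocnemius (log2 -1.42 ± 0.11, adjusted p = 4.87e-08). The groups of both genes were apart by a wide margin. Ndufb2 was at 6.81, 6.81 and 6.70 in NTB heart and 8.10, 7.89 and 7.57 in NTB gastrocnemius, again with no overlap (log2 -1.08 ± 0.21, adjusted p = 0.000548). Ndufs5 and Ndufs1 differed by -1.05 ± 0.15 (adjusted p = 3.95e-05) and -0.84 ± 0.12 (adjusted p = 2.95e-05). Core subunits of the same complex thus lay on both sides, with Ndufs1 lower and Ndufs7, Ndufs8 and Ndufv2 (0.84 ± 0.16, adjusted p = 0.000539) higher in NTB heart. In the C26 groups Ndufb7 was at 8.55, 8.55 and 8.69 in C26 heart and 10.00, 9.51 and 8.87 in C26 gastrocnemius. Ndufa4 was at 10.81, 10.81 and 10.79 in C26 heart and 12.08, 12.09 and 11.78 in C26 gastrocnemius, and Ndufb2 at 6.45, 6.47 and 6.60 in C26 heart and 7.82, 7.11 and 6.79 in C26 gastrocnemius. For these 3 genes every C26 heart array lay below every C26 gastrocnemius array, among which array 3 came closest.

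The rest of the pathway is given from lists drawn up by function. Of 12 complex I assembly factors (from a list of 19) 2 fell in C26 gastrocnemius (median change -0.36), with 0 to 5 falling when an array was left out and a median of -0.18 without C26 gastrocnemius array 3. These were Ndufaf1, which helps to build the membrane arm (-0.56, adjusted p = 0.0239), not called without NTB gastrocnemius array 2 or 3, and Dmac2 (-0.60, adjusted p = 0.0398), whose call held in 3 of 12 fits.

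The other complexes of the chain had similar medians in C26 gastrocnemius. Of 4 complex II genes 3 fell (median -0.65), with Sdhd, a membrane anchor, at -0.94 (adjusted p = 0.000212) and Sdhc at -0.74 (adjusted p = 0.00161). Of 9 complex III genes 5 fell (median -0.61), with Uqcrc1 at -1.04 (adjusted p = 0.00596) and cytochrome c1 (Cyc1) at -0.997 (adjusted p = 0.000493). Of 13 complex IV genes 5 fell (median -0.49), with the muscle isoform Cox7a1 at -1.44 (adjusted p = 0.00295), and of 14 ATP synthase genes (from a list of 15) 8 fell (median -0.57), with Atp5k at -0.86 (adjusted p = 0.000731). With an array left out, 2 to 4 genes of complex II fell, 3 to 9 of complex III, 3 to 8 of complex IV and 5 to 9 of ATP synthase. Their medians without C26 gastrocnemius array 3 were -0.49, -0.35, -0.22 and -0.40, against -0.35 for the 36 complex I genes. In heart 0 genes of these lists were called, and their medians lay between -0.20 and -0.08. Whether complex I differed from the other complexes was not tested.

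**Figure D5:**
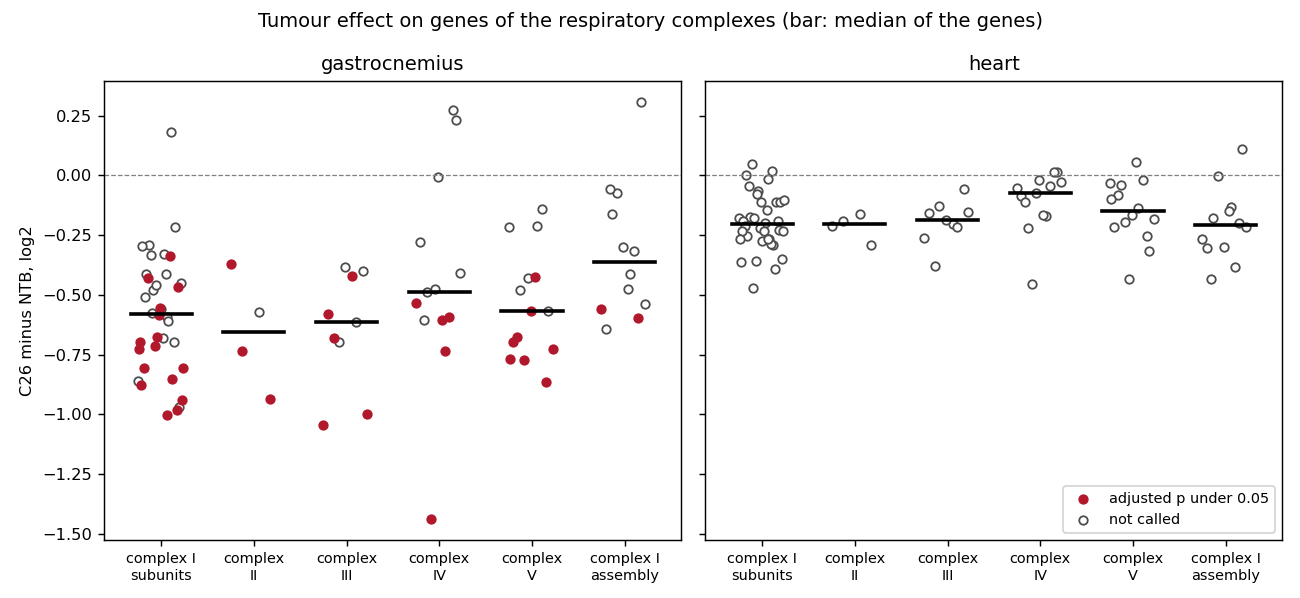
C26 minus NTB change (log2, y axis) of each measured gene of complex I (the 36 genes), complexes II to V and the complex I assembly factors in gastrocnemius (left) and heart (right), with 1 point per gene, filled where called, and a bar for the median. The gastrocnemius medians lie between -0.65 and -0.36, the heart medians between -0.21 and -0.08, and 0 heart points are filled.

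Among 11 regulators of mitochondrial genes (from a list of 12) 2 fell and 1 rose in C26 gastrocnemius. Esrra, an estrogen-related receptor, had levels of 7.72 to 8.02 in C26 and 8.14 to 8.61 in NTB gastrocnemius and fell by 0.60 ± 0.14 (adjusted p = 0.0109, and 0.0574 without NTB array 1). Its coactivator Ppargc1b had levels of 6.54 to 7.09 in C26 and 7.27 to 7.72 in NTB gastrocnemius and fell by 0.71 ± 0.17 (adjusted p = 0.0117, and 0.0567 without NTB array 2). For both the groups were apart. Yy1 had levels of 8.60 to 9.02 in C26 and 8.20 to 8.45 in NTB gastrocnemius and rose by 0.49 ± 0.15 (adjusted p = 0.0426), with its call kept in 2 of the 12 fits that each left out an array. Ppargc1a, the best known coactivator of mitochondrial genes, was not called (0.23 ± 0.20, adjusted p = 0.642), and its C26 arrays, at 8.23 to 9.28, spanned the NTB arrays at 8.38 to 8.76. Without C26 array 3 it was called higher (0.53, adjusted p = 0.0126), as were Nrf1 (0.53, adjusted p = 0.0229, against 0.46 and 0.0524 with it) and Tfb2m (0.38, adjusted p = 0.0176, against 0.17 and 0.632 with it). The changes of Gabpa (0.22), Esrrb (0.02), Gabpb1 (-0.03), Esrrg (-0.15) and Tfam (-0.36) were not called, and 0 of the 11 regulators were called in heart.

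The changes are given by the letters in the start regions as a description, with no test. The 5 complex I genes with the YY1 letters had a median change of -0.68 in gastrocnemius and 2 of them fell, while the 28 without had a median of -0.52 and 12 fell. In heart the medians were -0.23 with and -0.20 without these letters. The 4 genes with the ETS letters had a median of -0.75 in gastrocnemius and 3 of them fell, against -0.55 and 11 of the 29 without. For Ndufb4, Ndufb2 and Ndufs5, which carry the receptor core, the median was -0.61 and 0 fell, against -0.56 and 14 of 30. Between NTB heart and NTB gastrocnemius these 3 genes differed by 2.29, -1.08 and -1.05 in that order, so that they lay on both sides of 0. Their median was -1.05, against 0.58 for the 30 without the core. The stretches of these 3 were printed above for their place in this same comparison. The 2 genes with the NRF1 letters had a median change of -0.45 in gastrocnemius and 0 fell, against -0.58 and 14 of the 31 without.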

How the data were processed

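Whole gastrocnemius and heart were measured on 12 1-colour Affymetrix MoGene-1_0-st-v1 arrays, 3 per group, from 250 ng of RNA each, per the labels' protocols. The deposited values are log2 expression levels made by the authors with RMA, and the tools RMA, GCOS and Partek and the build mm8 are named per the submitters' processing notes without versions or roles. The log2 scale follows from their range. A second deposited table was used for gene symbols alone, since the names of its 12 value columns could not be matched to samples; the plan had been to take the values from it.

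Of 35556 transcripts, 11737 had no symbol, and 22121 were named through the symbol, completed from the GRCm38.p6 gene table where it was shortened; the rest had no single match. They stood for 19591 genes. One limma model (limma 3.58.1, R 4.3.3) with 4 group means was fitted, with 8 residual degrees of freedom to which the moderation added 6.84 (the median over genes), variances moderated along the trend with expression, two-sided tests and Benjamini-Hochberg adjustment over all genes. The number of arrays limits the precision. The fit was tested on simulated data. The simulated arrays were independent and had the same spread per gene in every group, so that paired arrays and unequal spreads were not tried. In the measured data same-numbered gastrocnemius arrays deviated from their group means together (correlations of 0.31, 0.33 and 0.50), heart arrays did not (0.09, -0.04 and 0.02).

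The 36 genes, the lists and the markers were chosen with earlier results of these data known, so that their direction is no independent evidence. Genes were named by rule: all core subunits, the largest and smallest changes in each comparison, and of each list up to 4 called genes; the other members called in gastrocnemius were named as well. Alternatives were arrays fitted alone, array weights, each array left out, the replicate block, quantile normalization, centring, a filter on dim genes, other variance models and the mean of a gene's transcripts. A further list of complex I subunits is not reported here.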

Additional observations from a re-analysis of the deposited data

Results flagged for a closer look

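The tumour effect on Ndufs1, the largest core subunit of complex I, was called different between the muscles in the test of the difference itself. Ndufs1 changed by -0.88 in gastrocnemius and by -0.23 in heart, and the difference of -0.64 ± 0.17 had an adjusted p of 0.0416 in the limma model. Ndufs1 was the 1 gene of the 36 called for the difference, a number near the 1.97% of all genes called in that direction. It was not called with arrays centred on the median or without the variance trend. Its C26 arrays lay below its NTB arrays in both muscles. The difference was called again without C26 gastrocnemius array 1 or 3 (adjusted p = 0.0244 without array 3) and not without any of the other 10 arrays. The muscles came from separate cohorts, and cohort and muscle cannot be told apart.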

How the results depend on the processing

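The direction of the median change and of most genes did not depend on the processing, whereas the number of genes called did. In gastrocnemius 16 complex I genes were called, against 4 with each muscle fitted alone, 27 with array weights, 29 with the replicate block, 30 with quantile normalization, 12 with arrays centred on the median, 24 with dim genes left out, and 9 to 27 with each array left out in turn. The share of all genes that fell was 5.42%, against 2.17%, 7.95%, 7.59%, 7.54%, 4.43%, 9.07% and 3.64% to 6.83% in the same order. In heart 0 were called, against 12 with the muscle fitted alone, 5 with array weights and 0 to 1 with an array left out. The share of all genes that fell in heart was 1.09%, against 5.46%, 4.77% and 0.495% to 2.53% in the same order. For the difference of the tumour effects 1 was called, against 4 with array weights or quantile normalization, 7 with the replicate block and 2 with dim genes left out. With arrays centred or without the variance trend 0 were called, and 0 to 5 with an array left out. Of all genes 1.97% were called for a more negative effect in gastrocnemius, against 4.8% with array weights and 3.19% with quantile normalization. The share was 3.63% with the block, 3.48% with dim genes left out and 1.44% with arrays centred. It was 1.95% without the variance trend and 1.19% to 2.99% with an array left out. Between NTB heart and NTB gastrocnemius 24 were called, 19 higher and 5 lower in heart, where 24.7% and 15.8% of all genes were. With an array left out 20 to 29 were called in either direction. In these fits 13.1% to 18.5% of all genes were called lower in heart. Those called higher were not counted, so that this range is no matching share for both directions. The median change lay between -0.75 and -0.35 in gastrocnemius and between -0.22 and -0.20 in heart with each array left out, and at -0.47 with array weights and -0.65 with quantile normalization in gastrocnemius. With each array left out in turn, the gastrocnemius change of Ndufa7 ranged from -0.068 to 0.44 and was also -0.044 without C26 array 1, and that of Ndufa12 ranged from -0.44 to 0.058, with neither gene called in any of these fits. The replicate block changed no call in heart. The cause of the other shifts was not tested. With 3 arrays a group the precision is low, and for dim transcripts signal over background limits it further.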
